A study of Mus musculus with 14 samples.

Results

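The Hes and Hey genes encode transcriptional repressors of the basic helix-loop-helix family that act downstream of Notch receptors. Peaks of CUT&Tag, an assay in which an antibody directs the Tn5 transposase to a protein on chromatin so that the DNA around it is cut and tagged, were examined here at 5 of these genes in muscle stem cells (MuSCs), namely Hes1, Hes6, Hey1, Hey2 and Heyl. A peak was counted at a gene when it overlapped the canonical GENCODE transcript or the 20 kb on either side of it. These 5 genes were among 21757 protein-coding genes, and 71 of the 175565 peaks in 6 lists lay at them.

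The cells came from skeletal muscle of female mice aged 9 weeks of the genotype C57BL/6N(Tg(Pax7-EGFP)Tajb). They were sorted for the green fluorescent protein driven by Pax7, the gene that marks MuSCs, and were kept in culture, so the data describe cultured cells. All groups then spent 6 h without serum in 200 ng/mL BMPR-1A-Fc, a soluble receptor that binds BMPs in the medium. The BMP6 groups received 100 ng/mL BMP6 for 1 h and the vehicle groups the solvent alone (4 mM HCl with 0.1% BSA) for the same time. Each antibody and treatment had 2 biological replicates, each from 100000 cells per condition, and fixation was light, with formaldehyde at 0.1% for 2 min. The antibodies recognised pSMAD1/5/9, SMAD4 and H3K27ac. The groups of 2 samples were BMP6 pSMAD1/5/9, vehicle pSMAD1/5/9, BMP6 SMAD4, vehicle SMAD4, BMP6 H3K27ac and vehicle H3K27ac. Another 2 libraries, for which the primary antibody was left out, were not analysed here.

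BMPs bind receptor kinases that phosphorylate SMAD1, SMAD5 and SMAD9, and these enter the nucleus together with SMAD4, the partner that they share with TGF-β signalling. Notch receptors are cleaved when they meet a ligand, and their intracellular part joins the DNA-binding protein RBPJ at target promoters, of which those of Hes1, Hey1 and Heyl are well known in MuSCs. HES1, HEY1, HEY2 and HEYL repress genes by recruiting corepressors, and Notch signalling is known to keep MuSCs quiescent and undifferentiated. HES6 stands apart because it is known to counteract HES1 and to accompany differentiation of neural and muscle cells. H3K27ac is a histone mark of active promoters and enhancers.

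The deposited lists held 7339 and 949 peaks for pSMAD1/5/9 (BMP6 and vehicle), 12860 and 8577 for SMAD4, and 78050 and 67790 for H3K27ac. Each list is a consensus of both replicates. It gives a signal, a score without a fixed range that equals the sum of 2 replicate columns. Signals were therefore compared by rank within a list, where rank 1 is the strongest peak, and replicate values are given as the ranks by each column alone. The reads had been subsampled to the same depth within an antibody, but the lists give no read counts for single peaks. A gene without a listed peak is a gene where none passed an irreproducible discovery rate (IDR) of 0.05 in both replicates, and the list of vehicle pSMAD1/5/9 was the shortest. H3K27ac peaks lay within 2 kb of the transcription start site (TSS) of 6 of 6 markers of MuSCs in both conditions, of 0 of 3 endothelial markers, of 1 of 3 immune markers (Cd68), of 1 of 3 markers of fibroadipogenic cells (Dpt) and of 2 of 3 myofibre markers (Ckm and Myh1). The part of other cells in these results was not tested.

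The sequences below are shown because the strongest or most proximal SMAD peaks lie on them, and that of Hey2 because no SMAD peak was listed there. They were read from GRCm39 on the strand of the gene. Capitals mark GGCGCC or GGAGCC, the GC-rich motifs known to bind SMAD1 and SMAD5, CAGACA, which holds the SMAD box, and TGGGAA, the core of the RBPJ motif, each on either strand. The first Hes1 stretch, chr16:29883877-29884126, is the 250 bp before the canonical TSS and lies in no annotated exon.
Hes1, before the TSS: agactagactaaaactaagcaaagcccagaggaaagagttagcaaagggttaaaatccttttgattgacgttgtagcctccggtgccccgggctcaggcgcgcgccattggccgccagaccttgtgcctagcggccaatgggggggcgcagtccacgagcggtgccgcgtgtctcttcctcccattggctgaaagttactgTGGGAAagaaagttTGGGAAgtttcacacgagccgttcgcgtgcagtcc
The Hey2 stretch, chr10:30718829-30719078, is the 250 bp before its TSS.
Hey2, before the TSS: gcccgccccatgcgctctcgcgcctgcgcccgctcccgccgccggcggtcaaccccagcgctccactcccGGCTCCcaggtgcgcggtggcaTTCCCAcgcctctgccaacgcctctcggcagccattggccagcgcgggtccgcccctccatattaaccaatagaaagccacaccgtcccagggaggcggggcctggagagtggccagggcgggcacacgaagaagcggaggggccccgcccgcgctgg
The Heyl stretch, chr4:123122079-123122278, is the 200 bp around its strongest pSMAD1/5/9 summit and is intergenic.
Heyl, upstream summit: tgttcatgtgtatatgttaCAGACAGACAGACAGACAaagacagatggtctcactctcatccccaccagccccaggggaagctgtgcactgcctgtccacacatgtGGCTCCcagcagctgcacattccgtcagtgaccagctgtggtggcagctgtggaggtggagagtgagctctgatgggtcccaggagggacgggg
At Hes1 (chr16:29882820-29882849) and Hes6 (chr1:91341936-91341965) the strongest pSMAD1/5/9 summit lies in the 5′ UTR of an alternative transcript. Only 30 bases around it are therefore given, and these short stretches held none of the marked motifs. In the 200 bp around the summit, Hes1 held none either and Hes6 held 1 CAGACA. The whole peak of Hes1 held GGCGCC or GGAGCC at 4 places and TGGGAA at 2. That of Hes6 held GGCGCC or GGAGCC at 1 place and CAGACA at 2.
Hes1, upstream summit: agctttcgggccgccgcccccgcggattcc
Hes6, upstream summit: gccggcctgccgcttttctctgcggaagcg

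After BMP6, pSMAD1/5/9 peaks were listed at 4 of the 5 genes, and only Hey2 had none. The background was 29.1% of all protein-coding genes. In vehicle cells pSMAD1/5/9 was listed at 1 of the 5, Hes6, against 5.97% of genes. Hes1, Hey1 and Heyl thus had a pSMAD1/5/9 peak with BMP6 and none with vehicle, a pattern that 23.5% of genes showed. SMAD4 was listed at the same 4 genes in both conditions, against 39.3% of genes with BMP6 and 30.8% with vehicle. Both pSMAD1/5/9 and SMAD4 were listed at these 4 genes after BMP6, and at 25.4% of genes in all. H3K27ac peaks were present at 5 of 5 genes in both conditions, where the background was 74.8% with BMP6 and 73.4% with vehicle. In numbers of peaks, the genes held 12 pSMAD1/5/9 peaks with BMP6 and 1 with vehicle, 14 and 13 SMAD4 peaks, and 17 and 14 H3K27ac peaks. The median gene of the 5 had 3 pSMAD1/5/9 peaks with BMP6, and the median of all genes was 0. With groups of 2 samples an exact permutation test could not go below p = 0.333, and peaks enter a list because their replicates agree, so no test was made and the results are given as counts, ranks and ratios.

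**Figure D1:**
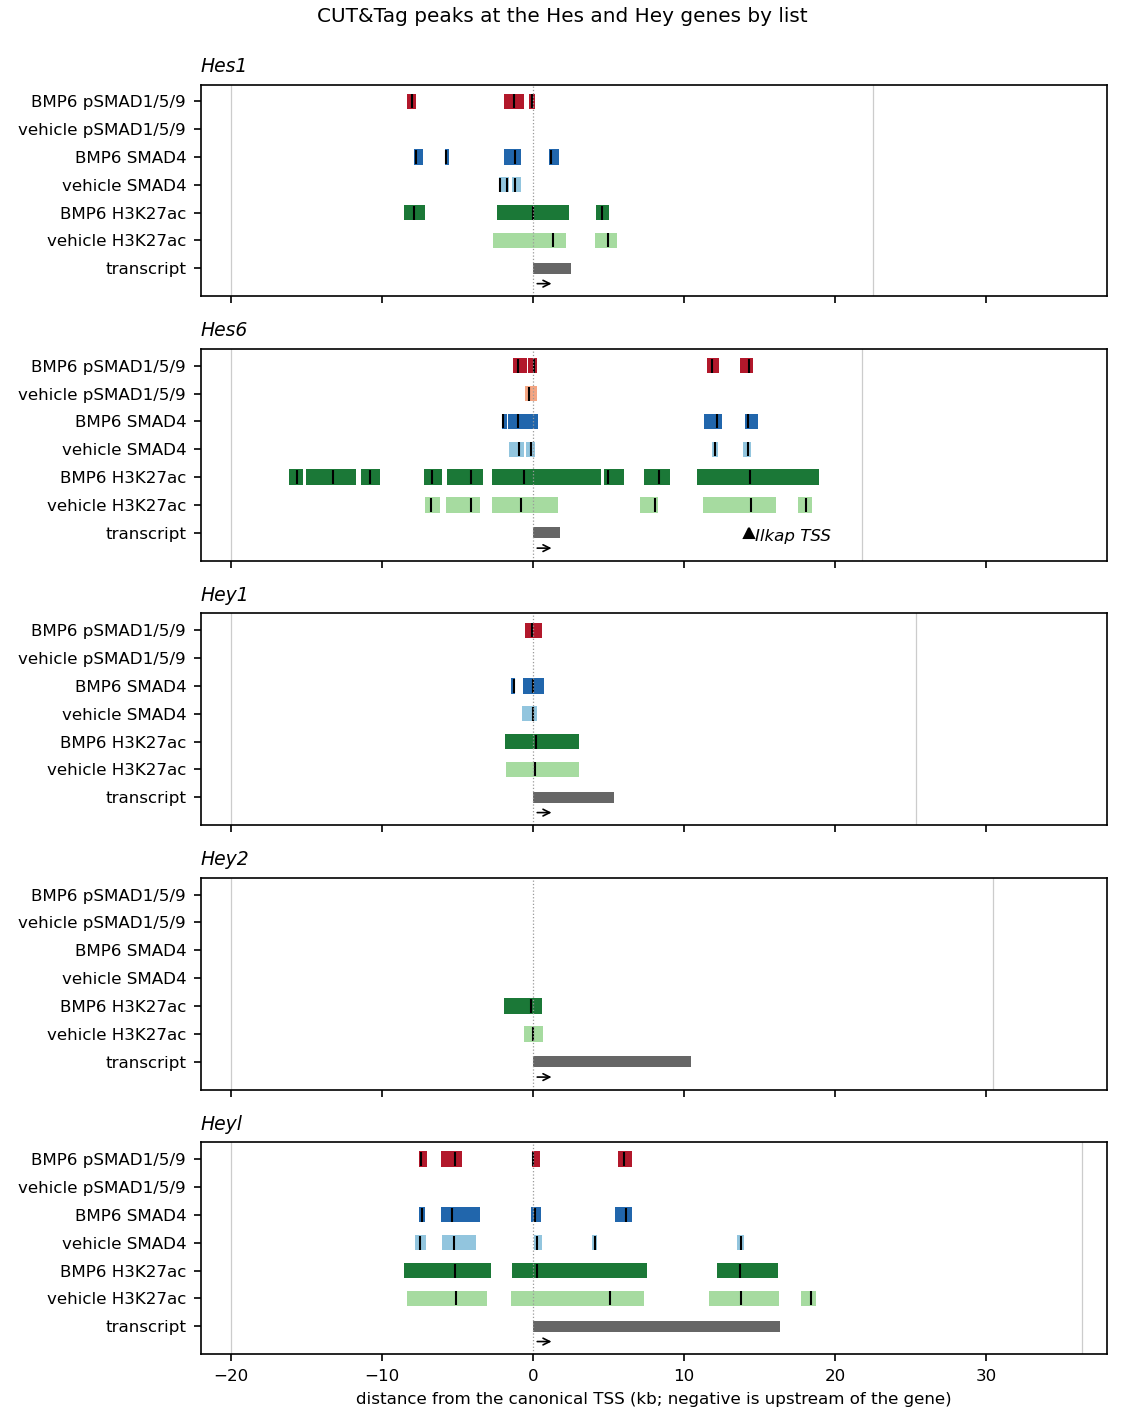
Peaks of the 6 lists (coloured bars, with a black tick at the summit) at each gene, by distance from the canonical TSS in kb along the direction of transcription. The arrow marks the TSS, the grey bar the canonical transcript, the grey lines the ends of the 20 kb margins, and the triangle the TSS of Ilkap. The pSMAD1/5/9 row of vehicle cells is empty except at Hes6, and Hey2 has H3K27ac peaks only.

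Hes1 (ENSMUSG00000022528.10), the best known Notch effector, is a plus-strand gene of 4 exons on chromosome 16 (29884127 to 29886643). Its strongest pSMAD1/5/9 peak after BMP6 spanned 29882191 to 29883516, with the summit 1292 bp upstream of the canonical TSS, and ranked 361 of 7339 (390 and 365 by the first and second replicate columns). The replicates ranked this peak almost alike. The peak covered the starts of 3 alternative Hes1 transcripts, 1689 bp to 1756 bp before the canonical TSS, and the TSS of Gm60905, a lncRNA gene on the opposite strand. A smaller peak from 29883871 to 29884230 covered the canonical TSS with a summit 102 bp upstream of it and ranked 2762 (1848 and 5105). Another, with the summit 8016 bp upstream, ranked 2942 (3502 and 2365). For these smaller peaks the replicate ranks were far apart.

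SMAD4 was listed over the same upstream site of Hes1 in both conditions. With BMP6 a single peak from 29882227 to 29883348 ranked 451 of 12860 (464 and 480), with the summit 1195 bp upstream of the TSS. With vehicle 3 smaller peaks overlapped it, with summits 1165 bp, 1727 bp and 2203 bp upstream, the strongest of which ranked 1867 of 8577 (1340 and 3798). The vehicle rank thus depended on the replicate column far more than the BMP6 rank did. In BMP6-stimulated cells 3 further SMAD4 peaks were listed, in an intron 1216 bp downstream of the TSS and 5779 bp and 7761 bp upstream, ranking between 6651 and 9926, and no vehicle SMAD4 peak overlapped any of them. No SMAD4 peak covered the canonical TSS in either list, while the smaller pSMAD1/5/9 peak did. An H3K27ac domain of 4760 bp with BMP6 and 4800 bp with vehicle covered the upstream site, the TSS and nearly the whole gene.

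Hey1 (ENSMUSG00000040289.10), whose protein can pair with HES1, is a minus-strand gene of 5 exons on chromosome 3 (8726956 to 8732316). Its single pSMAD1/5/9 peak after BMP6, from 8731750 to 8732850, covered the TSS with the summit 94 bp upstream of it and ranked 1048 of 7339 (1401 and 730). SMAD4 peaks covered the TSS as well, from 8731603 to 8733010 with BMP6 (rank 242 of 12860, 240 and 264 by replicate) and from 8732065 to 8733060 with vehicle (rank 473 of 8577, 344 and 867). Their summits lay in the first exon, 17 bp and 12 bp downstream of the TSS. A second, weak SMAD4 peak 1237 bp upstream was listed with BMP6 only, at rank 10523. At Hey1, in contrast to Hes1, all of the strong SMAD signal thus lay at the canonical TSS. The pSMAD1/5/9 peak also covered a start of the lncRNA gene Gm64520, which lies on the opposite strand.

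Hes6 (ENSMUSG00000067071.10) is a minus-strand gene of 4 exons on chromosome 1 (91339205 to 91340960). It carried the strongest SMAD4 peak of the 5 genes after BMP6, from 91340602 to 91342647, with the summit 998 bp upstream of the TSS and rank 27 of 12860 (25 and 35). The strongest pSMAD1/5/9 peak, from 91341331 to 91342320, had its summit 991 bp upstream and ranked 171 of 7339 (207 and 148). A second pSMAD1/5/9 peak covered the canonical TSS, with the summit 36 bp downstream and rank 1200 (1038 and 1696). The replicate ranks were closer to each other at the upstream peak than at the TSS. The single vehicle pSMAD1/5/9 peak, from 91340721 to 91341480, ranked 196 of 949 (177 and 226) and had its summit 277 bp upstream, between these summits, so that it overlapped both BMP6 peaks. Vehicle SMAD4 showed the same pair of sites, with summits 163 bp and 960 bp upstream at ranks 1498 and 90 of 8577. The BMP6 summits of pSMAD1/5/9 and SMAD4 lie 152 bp and 145 bp downstream of the start of an alternative Hes6 transcript at 91342103. A last, weak SMAD4 peak 1966 bp upstream of the canonical TSS, at rank 12326, was listed with BMP6 only.

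The region of Hes6 also holds the TSS of Ilkap, a gene for a protein phosphatase that binds integrin-linked kinase, 14323 bp downstream of the Hes6 TSS. The pSMAD1/5/9 peak 14285 bp downstream (rank 412) and the SMAD4 peaks 14246 bp (BMP6, rank 503) and 14226 bp downstream (vehicle, rank 1921) covered it. A further pSMAD1/5/9 peak, 11849 bp downstream at rank 3577, and SMAD4 peaks 12157 bp (BMP6, rank 1414) and 12049 bp downstream (vehicle, rank 6702) were also nearer to the TSS of Ilkap than to that of Hes6. Peaks were also counted only where the nearest protein-coding TSS was that of the named gene. The totals over the 5 genes were then 10 for BMP6 pSMAD1/5/9, 12 for BMP6 SMAD4 and 11 for vehicle SMAD4. The numbers of genes with a peak did not change. Starts of lncRNA genes were left out of this count. The vehicle pSMAD1/5/9 summit of Hes6 lay nearest to a start of the lncRNA gene Gm57139, 85 bp away. The strongest pSMAD1/5/9 summit of Hes1 lay nearest to a start of Gm60905, 226 bp away.

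Heyl (ENSMUSG00000032744.6), which encodes a further HEY repressor, is a plus-strand gene of 5 exons on chromosome 4 (123127349 to 123143682). Its strongest SMAD site was not at the TSS but 5 kb upstream, in sequence without an annotated exon. There the pSMAD1/5/9 peak after BMP6, from 123121261 to 123122640, ranked 167 of 7339 (272 and 89), with the summit 5170 bp upstream of the TSS. SMAD4 was already listed there with vehicle, from 123121318 to 123123594, at rank 43 of 8577 (203 and 9), and with BMP6 from 123121285 to 123123825 at rank 228 of 12860 (314 and 174). These SMAD4 peaks were 2277 bp and 2541 bp wide, and only 0.0583% of vehicle and 0.156% of BMP6 SMAD4 peaks were at least as wide. The lists differ in length, and this Heyl peak stood at 1.77% of the list with BMP6 and at 0.501% with vehicle.

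Further pSMAD1/5/9 peaks of Heyl lay 7395 bp upstream (rank 2187), in an intron 6047 bp downstream of the TSS (rank 1375), and over the TSS with the summit 11 bp into the gene (rank 5803, 4510 and 7072 by replicate). The peak over the TSS was the weakest of the 12 pSMAD1/5/9 peaks at these genes. SMAD4 was listed near all of these summits with BMP6, at ranks 3753, 1262 and 3430. With vehicle it was listed 7481 bp upstream (rank 1534) and 243 bp downstream (rank 4315), but not at the intronic site, where the nearest vehicle peak lay 4090 bp downstream (rank 6457) and did not overlap. One more vehicle SMAD4 peak, in an exon 13769 bp downstream of the TSS at rank 6241, had no counterpart with BMP6.

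Hey2 (ENSMUSG00000019789.11), which encodes a HEY repressor best known from heart and vessels, is a minus-strand gene of 5 exons on chromosome 10 (30708355 to 30718828). None of the 4 SMAD lists held a peak within 20 kb of it. An H3K27ac peak covered its TSS in both conditions, at rank 24483 of 78050 with BMP6 (27050 and 22262 by replicate) and 23692 of 67790 with vehicle (23695 and 23671), so it was the weakest of the 5 genes in this mark as well.

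By the strongest pSMAD1/5/9 peak after BMP6 the order was Heyl (rank 167), Hes6 (171), Hes1 (361) and Hey1 (1048). Heyl and Hes6 changed places between the replicate columns, whereas Hes1 and Hey1 followed in this order in both. Peaks as strong as that of Heyl were found within 20 kb of 1.1% of all genes, as strong as that of Hes6 at 1.12%, Hes1 at 2.22% and Hey1 at 5.92%. For SMAD4 with BMP6 the order was Hes6 (27), Heyl (228), Hey1 (242) and Hes1 (451), with Heyl and Hey1 trading places between columns. The shares of genes with as strong a SMAD4 peak were 0.175%, 1.42%, 1.52% and 2.56% in this order. With vehicle it was Heyl (43), Hes6 (90), Hey1 (473) and Hes1 (1867), and again the first 2 traded places. The vehicle rank of Hes1 is that of the strongest of 3 vehicle peaks under its BMP6 peak, not of their signals added up. Hes1 and Hey1 thus ranked below Hes6 and Heyl for pSMAD1/5/9 in both replicate columns. With the signal multiplied by the peak width, however, the pSMAD1/5/9 ranks were 141 for Heyl, 246 for Hes1, 282 for Hes6 and 721 for Hey1, so that the order of Hes1 and Hes6 depended on the measure.

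**Figure D2:**
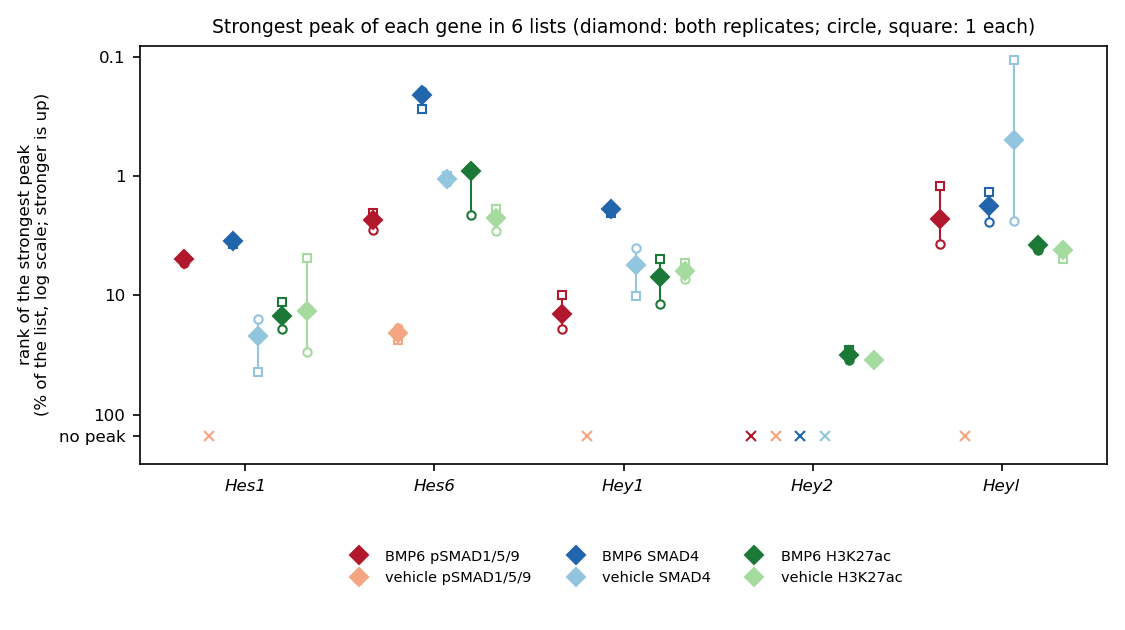
Rank of the strongest peak of each gene in each list as a percentage of the list, on a log scale with stronger peaks at the top. Diamonds give the rank by the sum of both replicates, open circles and squares the rank of that peak by the first and second replicate column, and crosses mark genes without a peak. The SMAD4 diamond of Hes1 lies at 3.51% with BMP6 and 21.8% with vehicle, and that of Heyl at 1.77% and 0.501%. The vehicle diamond of Hes1 shows the strongest of 3 vehicle SMAD4 peaks that its BMP6 peak overlapped.

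**Figure D3:**
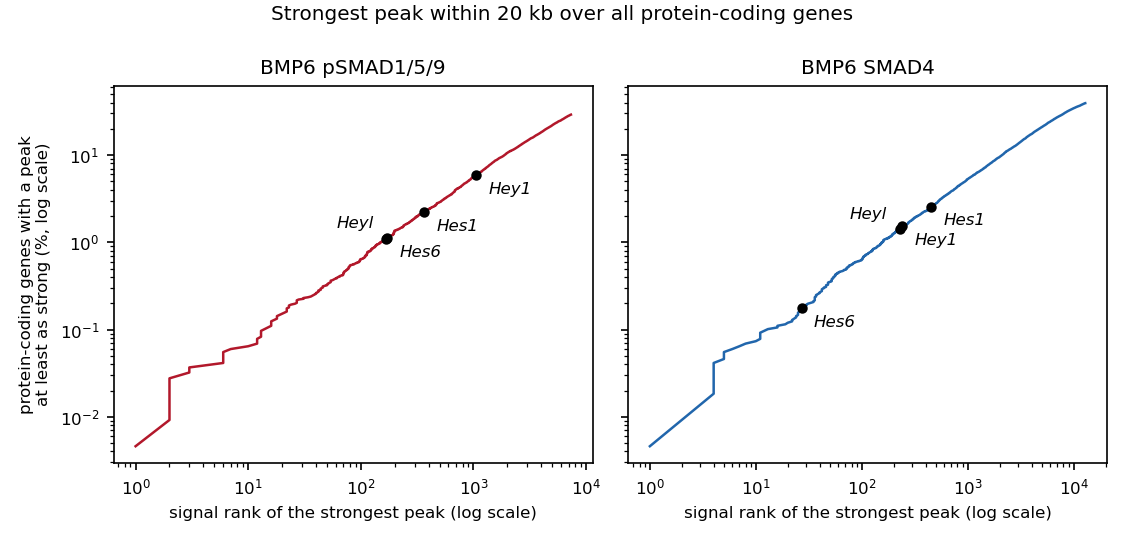
Share of all 21757 protein-coding genes with a peak at least as strong within 20 kb, against the signal rank of that peak, for pSMAD1/5/9 and SMAD4 after BMP6, both axes on a log scale. The points mark the genes with a peak, which lie between 1.1% and 5.92% for pSMAD1/5/9 and between 0.175% and 2.56% for SMAD4.

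At sites listed in both conditions the signals were compared as a log2 ratio of BMP6 to vehicle. Each BMP6 peak was set against the vehicle peak that it overlapped most, and the ratio was centred on the median over all shared peaks of the antibody, since the scale of the lists is not stated. Of the 14 SMAD4 peaks at the genes after BMP6, 8 overlapped a vehicle SMAD4 peak, and over the whole list 45.5% did. Their median ratio was 0.45, and the quartiles over all 5852 shared peaks were -0.463 and 0.45. At 5 of the 8 both BMP6 values were above both vehicle values after each column had been centred, as at 23.4% of all shared SMAD4 peaks. At 1 of the 8 both were below, as at 28.0% of shared peaks, and at 2 they overlapped.

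The upstream site of Hes1 had centred log2 signals of 1.40 and 1.61 with BMP6 and 0.76 and -0.23 with vehicle. Its log2 ratio of BMP6 to vehicle was 1.07, and 6.99% of shared SMAD4 peaks had a ratio at least as high. The BMP6 peak overlapped 3 vehicle peaks, however, of which the one 2203 bp upstream met it only at its edge. With the whole signals of all 3 added up the ratio was 0.20. The log2 ratio of 1.07 became 1.85 without the first replicate column of both lists and 0.73 without the second. Here and below, columns were matched by their order, although they carry no replicate number, and other pairings of columns were not tried. At Hey1 the centred signals were 1.71 and 1.90 with BMP6 and 1.59 and 1.05 with vehicle, a log2 ratio of 0.42 that 26.4% of shared peaks reached. Without the first column it was 0.87 and without the second 0.20. The groups did not overlap at either gene, but at both the gap between them was smaller than the gap between the vehicle replicates.

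At Hes6 all 3 shared SMAD4 sites had higher centred signals in both BMP6 columns. The BMP6 peaks there were much wider than the vehicle peaks they were paired with (2046 bp against 1020 bp upstream, and 891 bp against 540 bp and 1155 bp against 360 bp near Ilkap), and none of the 3 pairs remained when 50% of both peaks had to overlap. The upstream site had 2.55 and 2.72 with BMP6 and 2.14 and 2.25 with vehicle, a log2 ratio of 0.48 that became 0.10 when both vehicle peaks under it were added up. The sites nearer to Ilkap had log2 ratios of 1.03, at 14246 bp downstream, and 1.83, at 12157 bp downstream, the highest of the 8. Only 1.03% of shared SMAD4 peaks had a ratio as high as the latter, where the vehicle peak was weak and its replicates far apart (-1.46 and -0.45). Without the first or the second column that ratio was 1.2 or 2.38.

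At Heyl the direction differed between sites. The strong upstream site had centred signals of 1.59 and 2.13 with BMP6 and 1.84 and 3.04 with vehicle, which overlapped, and a log2 ratio of -0.58 (-0.89 and -0.16 without the first and the second column). The site 7329 bp upstream had -0.33 and 0.32 with BMP6 and 0.46 and 0.85 with vehicle, a ratio of -0.64, the lowest of the 8. At the TSS the log2 ratio was 0.43, with overlapping replicates, and its sign depended on the column (-0.19 without the first and 1.03 without the second).

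For pSMAD1/5/9, 2 of the 12 BMP6 peaks overlapped a vehicle peak, both at Hes6 and both the same vehicle peak, while 11.4% of the list did. The upstream one had centred log2 signals of 1.02 and 1.03 with BMP6 against 0.55 and 0.39 with vehicle, and the one at the TSS 0.17 and -0.17 against the same values. Both BMP6 values of the upstream peak were above both values of that vehicle peak and those of the TSS peak were below, as was so at 31.6% and 33.8% of shared pSMAD1/5/9 peaks. The vehicle peak met the upstream BMP6 peak only at its edge, with its summit 277 bp before the TSS against 991 bp, so it gives no vehicle value for the upstream summit itself. The other 10 peaks overlapped no vehicle pSMAD1/5/9 peak.

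**Figure D4:**
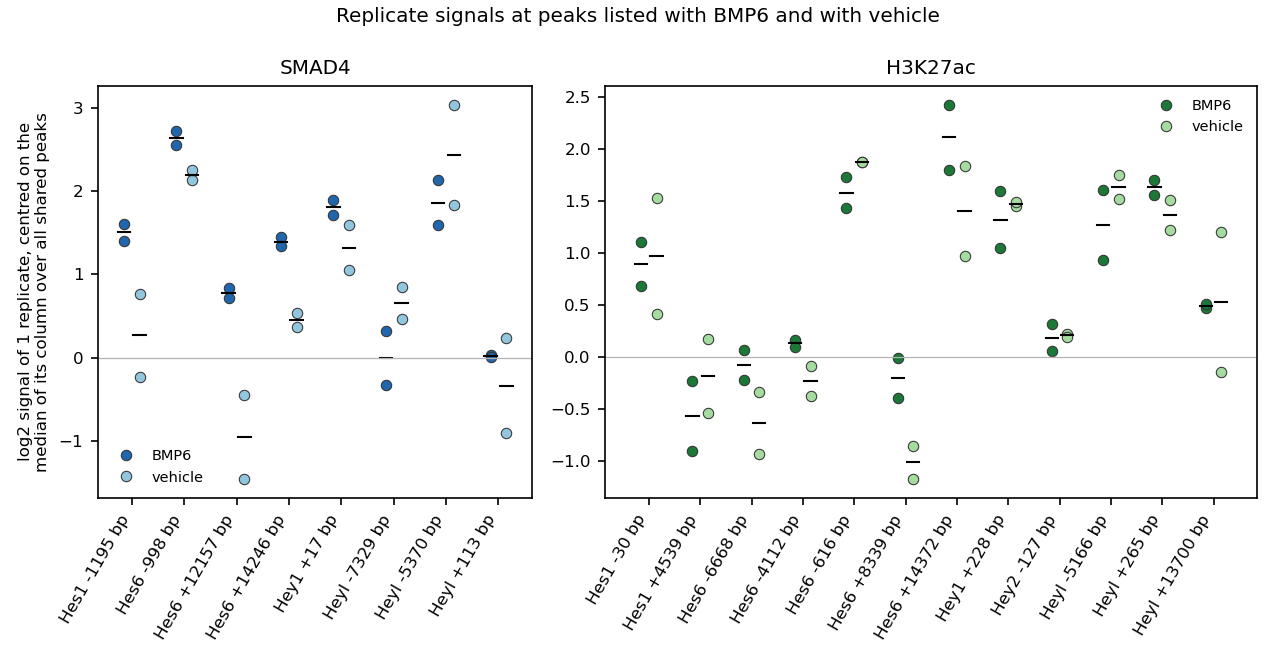
Log2 signals of single replicates (points) and their means (lines) at the SMAD4 and H3K27ac peaks of the 5 genes that were listed with both BMP6 and vehicle, each column centred on its median over all shared peaks of the antibody (0 on the axis). Sites are named by the distance of the BMP6 summit from the TSS. For SMAD4, BMP6 lies above vehicle at Hes1, at Hey1 and at the 3 sites in the region of Hes6. Those 12157 bp and 14246 bp downstream are nearer to the TSS of Ilkap. At Heyl the groups overlap or BMP6 lies below.

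The H3K27ac ratios at these genes spanned a narrower range than those of SMAD4. Of 17 peaks with BMP6, 12 overlapped a vehicle peak, and 72.0% did so over the whole list. Their log2 ratios of BMP6 to vehicle, centred in the same way, ran from -0.45 to 0.77 with a median of -0.08. At the TSS the ratios were -0.16 for Hes1, -0.30 for Hes6, -0.13 for Hey1, -0.03 for Hey2 and 0.24 for Heyl, and the quartiles over all shared H3K27ac peaks were -0.275 and 0.267. Both BMP6 values were above both vehicle values at 4 of the 12 shared peaks, as at 18.5% of all shared H3K27ac peaks, and below at 1, as at 17.0%. The 4 were the TSS domain of Heyl and sites in the region of Hes6 8339 bp downstream and 4112 bp and 6668 bp upstream. The peak 8339 bp downstream covered a start of the lncRNA gene 1700020N18Rik, and the summit 4112 bp upstream lay in an exon of Per2. The 1 was the TSS domain of Hes6, where the centred signals were 1.44 and 1.73 with BMP6 and 1.88 and 1.88 with vehicle. At Hes1, Hey1 and Hey2 the replicates of the groups overlapped.

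The acetylated domains over the TSS at the 4 genes that carried SMAD peaks were broad beside the whole H3K27ac list. Their widths were not compared with those of other peaks over a TSS. With BMP6, 5.59% of H3K27ac peaks were at least as wide as that of Hes1, 5.23% as that of Hey1, 2.04% as that of Hes6 and 1.19% as that of Heyl, and 22.2% as that of Hey2. The widest was at Heyl, where a domain of 8960 bp with BMP6 and 8800 bp with vehicle reached from the TSS into the body of the gene, and another of 5740 bp and 5300 bp covered the upstream SMAD site. At Hes6 the TSS domain was 7210 bp wide with BMP6 and 4400 bp with vehicle, and the one over the TSS of Ilkap 8120 bp and 4800 bp. At Hey1 the widths were 4900 bp and 4800 bp. By signal the TSS domains ranked 2961 with BMP6 and 5207 with vehicle at Heyl, 3294 and 1505 at Hes6, 5448 and 4223 at Hey1, and 11558 and 9107 at Hes1. The replicates were far apart at Hes1, with ranks of 15076 and 8912 with BMP6 and of 20114 and 3297 with vehicle, and at Hey1 with BMP6, with ranks of 9213 and 3832. The strongest H3K27ac peak in the region of Hes6 after BMP6 (rank 708) was the one over the TSS of Ilkap.

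SMAD4 was listed under 11 of the 12 pSMAD1/5/9 peaks after BMP6, and under 73.2% of the list. The exception was the peak over the canonical TSS of Hes1. A vehicle SMAD4 peak lay under 9 of the 12, and under 57.2% of the list. The 3 without one were the peaks of Hes1 at the TSS and 8016 bp upstream and the intronic peak of Heyl. All 12 overlapped H3K27ac with BMP6, where 98.2% of the list did, and 11 overlapped vehicle H3K27ac, where 97.5% did. The one that did not was the peak 8016 bp upstream of Hes1, a site where SMAD4, pSMAD1/5/9 and H3K27ac were each listed with BMP6 and none of them with vehicle. Its SMAD4 and H3K27ac peaks ranked 7538 of 12860 and 48843 of 78050.

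Where the lists overlapped, the pSMAD1/5/9 summit lay between 7 bp and 1034 bp from the SMAD4 summit, with a median of 111 bp over 11 sites, and the median over all 5375 such sites was 79 bp. The closest was the upstream site of Hes6 (7 bp). The distance was 97 bp at the upstream site of Hes1, 111 bp at Hey1 and 200 bp at the upstream site of Heyl. The farthest was the TSS of Hes6, where a single wide SMAD4 peak covered both pSMAD1/5/9 peaks.

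Motifs were counted on both strands in the 200 bp around each pSMAD1/5/9 summit after BMP6. GGCGCC or GGAGCC occurred in 5 of the 12 windows and in 30.2% of all 7339, CAGACA in 4 and in 23.4%, and TGGGAA in 4 and in 19.7%. CAGCTG, the E-box bound by myogenic factors, occurred in 4 windows and in 31.1% of all, and the AP-1 motif TGAGTCA or TGACTCA in 1 and in 15.5%. The palindrome GTCTAGAC occurred in none, and in 0.518% of all windows. CACNAG (the N-box) occurred in 5 and in 35.2%, and CACGNG, which overlaps it in the letters CACGAG, in 6 and in 19.4%. Both are letters that HES and HEY proteins are known to bind. Around the SMAD4 summits TGGGAA occurred in 8 of 14 windows with BMP6, where 20.0% of the list had it, and in 5 of 13 with vehicle, where 19.5% did. CAGACA occurred in 5 of 14 with BMP6 (27.4% of the list) and in 8 of 13 with vehicle (26.1%). The windows lie at only 4 genes, and those of different lists overlap, so they are not independent of each other.

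In the sequences shown above, the Hes1 promoter held TGGGAA at 2 places, 14 bp apart, starting 49 bp and 35 bp before the TSS, and neither of the GC-rich SMAD motifs nor CAGACA. It also held 4 matches to CACGNG and 3 to CACNAG, 2 of which are the same letters. The Hey2 promoter, without any SMAD peak, held GGCTCC (the reverse complement of GGAGCC) starting 180 bp and TTCCCA (the reverse complement of TGGGAA) starting 158 bp before the TSS. The Heyl site held 4 overlapping CAGACA in a short repeat, the first of them starting 5251 bp before the TSS, 1 GGCTCC starting 5164 bp before it and 3 CAGCTG. A match of these letters is not a binding site in itself.

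Over the promoters of all 21757 genes, taken as the 250 bp before the TSS, GGCGCC or GGAGCC occurred in 31.7%, TGGGAA in 22.7%, CACGNG in 24.4%, CACNAG in 36.5% and CAGACA in 15.6%. The Hes1 window around the upstream summit was 76.0% G and C, while the median over all pSMAD1/5/9 windows was 56.0%. The other pSMAD1/5/9 windows of Hes1 had 47.5% and 59.5%, and those of all the genes ran from 47.5% to 84.0%, the latter at Hey1.

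Other genes of the family were looked up in the same way. Of Hes2, Hes3, Hes5, Hes7, Helt, Bhlhe40 and Bhlhe41, 5 of 7 had a pSMAD1/5/9 peak with BMP6 and 1 with vehicle, 5 had SMAD4 in each condition and 6 had H3K27ac in each. The shares over all genes were 29.1% and 5.97% for pSMAD1/5/9, 39.3% and 30.8% for SMAD4, and 74.8% and 73.4% for H3K27ac, so that the H3K27ac count was near its background. Bhlhe40, a repressor that also acts in the circadian clock, had the strongest, at rank 56 of 7339 for pSMAD1/5/9 with BMP6 and 88 of 949 with vehicle. Its strongest SMAD4 peaks ranked 141 of 12860 and 107 of 8577. Hes3 had its strongest pSMAD1/5/9 peak at rank 740, Bhlhe41 at 1152, Hes2 at 1842 and Hes7 at 1896. Hes5, a Notch target in the nervous system, had no SMAD peak, and Helt had no peak in any list. Hes6 and Bhlhe40 were thus the only 2 of these 12 genes with a listed pSMAD1/5/9 peak in vehicle cells.

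Of the genes for the TLE corepressors, which HES proteins recruit, and Rbpj, 6 of 7 had a pSMAD1/5/9 peak with BMP6 and 0 of 7 with vehicle, against 29.1% and 5.97% of all genes. The vehicle count was thus near its background. Rbpj had the strongest, at rank 248 of 7339, and its SMAD4 peaks ranked 2692 with BMP6 and 6631 with vehicle. Among the Tle genes the strongest pSMAD1/5/9 peak ranked 2772 and was shared by the neighbours Tle2 and Tle5. Tle3 followed at 2868, Tle4 at 3618 and Tle1 at 4689, and Tle6 had none. SMAD4 was listed at 6 of the 7 in each condition (39.3% and 30.8% of all genes), with Tle6 lacking it after BMP6 and Tle4 with vehicle.

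The genes closest in pattern to Hes1 and Hey1 were found from the position of the strongest peak in each of the 6 lists, given as a percentile and as 0 without a peak. For Hes1 they were Gnb1l, Sart3 and F12, with mean absolute differences of 1.96, 2.47 and 2.75 percentile points over the 6 lists. For Hey1 they were Dctn2 and Mbd6, which share their peaks, at 0.63 points, and Atrnl1 at 0.80.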

How the data were processed

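Cultured mouse MuSCs were given BMP6 or vehicle and profiled by CUT&Tag with antibodies to H3K27ac, SMAD4 and pSMAD1/5/9, in 2 biological replicates each. Per the methods, reads were subsampled to an equal depth per antibody and aligned to GRCm39 with Bowtie2 2.5.4, filtered with SAMtools 1.21 and converted with bedtools 2.31.1 (versions also in the submitters' processing notes). Peaks were called in each replicate with JAMM and combined with IDR at 0.05, using the filtered JAMM peaks for SMADs and all of them for H3K27ac. The signal in the deposited lists is a score of the authors' peak caller, and its sum over the replicate columns gives the consensus signal. The authors' lists give the IDR as −log10, from which the threshold of 0.01 was read. The replicate columns carry no replicate number, and the reads behind single peaks are not given. The authors' own test of differential binding was not used here. They report that it did not call the regions of Hes1 and Hey1, where they saw more pSMAD1/5/9 and SMAD4 binding by eye.

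Positions were converted to 1-based coordinates. Canonical and basic transcripts, exons and UTRs came from GENCODE vM39 on GRCm39. Peaks overlapped with at least 1 bp. Shares of all genes or peaks stand beside the counts as background. Tables of RefSeq promoters on another build were not used. Overlaps, ranks, ratios and motif counts were computed with pandas 2.3.3 and numpy 2.4.6 under Python 3.11.15, samtools 1.23.1 and pysam 0.24.0 served to read sequence, and figures were drawn with matplotlib 3.10.9. The procedures were tested on simulated data. Named genes were the 5 genes, 7 relatives, 7 corepressor genes with Rbpj, other protein-coding genes with a TSS in a region, and the 3 genes nearest in pattern to Hes1 and Hey1. The genes and lists were chosen with earlier results of these data known. Alternatives covered the IDR threshold, the region, the transcripts, the summit in place of the peak, ranks by signal times peak width, the overlap, centring, each replicate column left out and the motif window. Counting by the nearest protein-coding TSS and adding up vehicle peaks were chosen after seeing the data. One upstream sequence is not reported here.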

Additional observations from a re-analysis of the deposited data

How the results depend on the processing

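No paired analysis was possible because the replicate columns of the lists carry no replicate number, although the labels give one as a batch. The number of genes with a peak stayed within 1.5 times its value under 41 of 42 alternatives. The exception was the region of 50 kb, with which vehicle pSMAD1/5/9 was listed at 2 genes with 2 peaks. The same region gave 23 BMP6 SMAD4 peaks and 36 (BMP6) and 33 (vehicle) H3K27ac peaks. With 5 kb there were 9 BMP6 SMAD4 and 10 BMP6 H3K27ac peaks. The promoter alone, from 1.5 kb before to 0.5 kb after the TSS, held 6 BMP6 pSMAD1/5/9 peaks, 5 BMP6 and 5 vehicle SMAD4 peaks, and 5 BMP6 and 5 vehicle H3K27ac peaks. An IDR of 0.01 left 9 BMP6 and 7 vehicle SMAD4 peaks. When 50% of both peaks had to overlap, 0 of 12 pSMAD1/5/9 peaks shared H3K27ac, whose peaks are wider, against 2.89% of the list. By the same rule 5 of 14 BMP6 SMAD4 peaks overlapped a vehicle SMAD4 peak, against 34.3% of the list. Both counts were near their background, and the 3 pairs of Hes6 were lost. Ranks by signal times peak width placed Hes1 (246) before Hes6 (282) for BMP6 pSMAD1/5/9.

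The median log2 ratio at shared SMAD4 peaks was 0.73 without centring, 0.33 with all vehicle peaks under a BMP6 peak added up, and between 0.61 and 0.67 with a replicate column left out. For H3K27ac the median with a column left out lay between -0.15 and 0.14, so its direction depended on the column. In windows of 400 bp TGGGAA and CAGCTG occurred at 7 and 7 of the 12 pSMAD1/5/9 summits, against 35.3% and 45.7% of the list. In the whole peak GGCGCC or GGAGCC occurred in 9 (58.3% of the list) and TGGGAA in 9 (47.0%). CACNAG occurred in 9 (70.6%), near its background, CACGNG in 10 (44.6%) and CAGCTG in 8 (55.1%). The lists hold no reads, so whether a site without a listed peak has signal below the threshold cannot be read from them.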
